A study of Mus musculus with 15 samples.

Results

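The genes described here form a run along mouse chromosome 15, from Trps1 to Puf60, and were taken from a list of 54 genes drawn up for the interval 50.65 to 75.93 Mb of the GRCm38 build. All 54 were matched by symbol or synonym to an identifier of the count files, which hold 27179 identifiers in all, 156 of them inside the interval. In the RefSeq annotation of GRCm38, 52 of the 54 lay inside the interval, and the last 2 genes of the list, Fam83h and Puf60, lay beyond its end. The list was drawn up with the expression differences between the populations of this study already known, so the members count as chosen by their fold changes in all of the comparisons below. The values of its members are therefore given as a description, and no test is read from them.

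The cells studied by RNA sequencing were 4T1 cells, a mouse mammary carcinoma line, sampled as a parental population (genotype WT per the labels) and as the populations E1, E2, A and M. Each of those 4 populations is 1 clone, grown from a single parental cell after transfection with the plasmid pNLS-iRFP670, which carries a near-infrared fluorescent protein. The clones were maintained with the antibiotic G418, which was absent when the cells were cultured for RNA, and RNA was collected from all 5 populations after 72 hours in culture at about 80% confluency. Each population has 3 biological replicates, 15 libraries in all, and p-values measure the spread between those replicates of a population, not between independent clones.

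The mouse segment carries the Myc oncogene and corresponds to part of the human chromosome arm that carries MYC, a region often gained in breast cancers. Myc is a transcription factor that drives genes of ribosome production, nucleotide synthesis and metabolism. Its neighbours are unrelated in function and include subunits of several cellular machines (cohesin, the translation initiation factor eIF3, respiratory complex I, the microRNA-binding Argonaute complex), components of endoplasmic reticulum quality control, and the enzymes of hyaluronan and heparan sulfate synthesis. Genes that lie next to each other on a chromosome often, but not always, share a copy number. Copy number was not measured here.

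The libraries held 20143111 to 36831801 counts, of which 6 genes took 61.4% to 72.1%, and the 54 genes together had 30609 to 102949 counts per library. Levels are given as CPM, read counts relative to the library total after TMM scaling (edgeR's cpm), so they compare 1 gene between libraries and not different genes with each other. All 8 epithelial markers were tested and summed to 271 to 313 CPM in the parental libraries and 333 to 569.7 CPM across A and M. Krt8 and Krt18 carried most of that sum, at means of 59.4 and 104.7 CPM in the parental cells and 202 and 245 in A, whereas Cdh1 had 68.2 CPM in the parental cells, 22.4 in A and 36.3 in M. Of 5 fibroblast markers, Dcn and Lum had no count in any library and Col3a1 and Col6a3 none in the parental, A and M libraries. The sum over that list, 6.77 to 7.43 CPM in the parental libraries, 21.0 to 33.8 CPM in A and 6.08 to 12.1 CPM in M, was nearly all Pdgfra, and its part in the levels of A was not tested. Leukocyte markers summed to at most 1.24 CPM and endothelial markers to at most 0.43 CPM. In these bulk samples, fewer cells of a type and less RNA per cell cannot be told apart.

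Summed over the segment, expression was lower in all 4 clones than in the parental population, and the difference was larger in A and M than in E1 and E2. The summed level of the 54 genes was 2994, 3257 and 3242 CPM in the parental libraries, 2454, 2587 and 2569 for E1, 2406, 2586 and 2431 for E2, 1392, 1357 and 1435 for A, and 1349, 1404 and 1420 for M. The libraries thus fell into 3 tiers that did not overlap, the parental libraries, then E1 and E2, then A and M. The means were 3164 ± 148 (SD, n = 3) in the parental population, 2536 ± 72.1 for E1, 2474 ± 97.6 for E2, 1395 ± 39.1 for A and 1391 ± 37.3 for M, which put A at 0.441 and M at 0.440 of the parental sum and E1 and E2 at 0.802 and 0.782. The plot of summed levels shows the 3 tiers library by library.

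**Figure D1:**
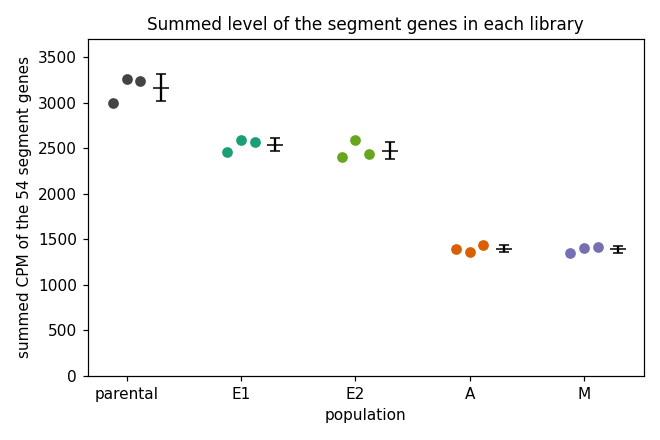
Summed level of the 54 segment genes in CPM (vertical axis) in each of the 15 libraries, by population; bars are the mean and SD of 3 libraries. The A and M libraries lie between 1349 and 1435 CPM and the parental libraries between 2994 and 3257 CPM.

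A gene was called where the edgeR quasi-likelihood test gave a Benjamini-Hochberg adjusted p under 0.05 over all 12712 genes tested. Of the 54 members, 52 passed the filter on low counts and entered the test. The remaining 2 were Sntb1, a syntrophin of the dystrophin complex, which had 4 counts over all libraries, and Khdrbs3, an RNA-binding protein, which had none. Against the parental population, 14 members were called lower and 2 higher in E1, where 7.35% of all tested genes were called lower and 7.77% higher. In E2, 17 members were called lower and 2 higher, beside 8.8% and 9.14% of all tested genes. In A, 31 members were called lower and 4 higher, beside 14.9% and 15.1%. In M, 33 members were called lower and 1 higher, beside 6.28% and 7.87%.

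The median log2 fold change of the 52 members against the parental population was -0.35 for E1, -0.33 for E2, -0.91 for A and -1.10 for M, where the median of all tested genes lay between -0.01 and 0.03. At least 2-fold lower fitted levels were found for 7 (E1), 8 (E2), 24 (A) and 30 (M) members, beside 6.88%, 6.21%, 8.06% and 6.18% of all tested genes. A set of 12 members was called lower in all 4 clones (background 1.74%): Eif3h, Mal2, Zhx2, Derl1, Zhx1, Rnf139, Tatdn1, Ndufb9, Mtss1, Efr3a, Ndrg1 and Ago2. Has2 was the only member called higher in all 4 clones (background 2.45%), and 27 members were called lower in both A and M (background 4.01%). The members called in no clone were Med30, Ext1, Dscc1, Deptor, Tmem65, Zfat, Dennd3, Ptp4a3, Gsdmd, Naprt and Eef1d. The share of all tested genes called in no clone is not given here. Among these members, Naprt, Dscc1 and Ptp4a3 were low genes, at 0.222, 0.669 and 1.39 CPM in the parental cells. Gsdmd had a log2 fold change of -1.205 in M without a call. Across the 5 populations together, 40 of the 52 members differed, where 40.9% of all tested genes did.

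The decrease was uneven along the segment, as the plot of fold changes by position shows. In the first 13 tested members by position, Trps1 to Deptor, the median log2 fold change was -0.34 (E1), -0.30 (E2), -0.17 (A) and -0.58 (M), and 5 of the 13 were called lower in A and 8 in M. In the next 30 tested members, Mrpl13 to Ptk2 (55534095 to 73423820), it was -0.40 (E1), -0.41 (E2), -1.63 (A) and -1.52 (M), and 24 of the 30 were called lower in A and 24 in M. In the last 7 tested members inside the interval, Dennd3 to Eef1d, it was -0.04 (E1), 0.06 (E2), -0.34 (A) and -0.43 (M), and none was called lower in A or M. The bounds of these stretches were chosen after the values were seen. Among these stretches, most members were thus called lower in A in the central one only, and in M in the first and the central one. Of the 2 members beyond the interval, Fam83h and Puf60, 2 were called lower in A and 1 in M.

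**Figure D2:**
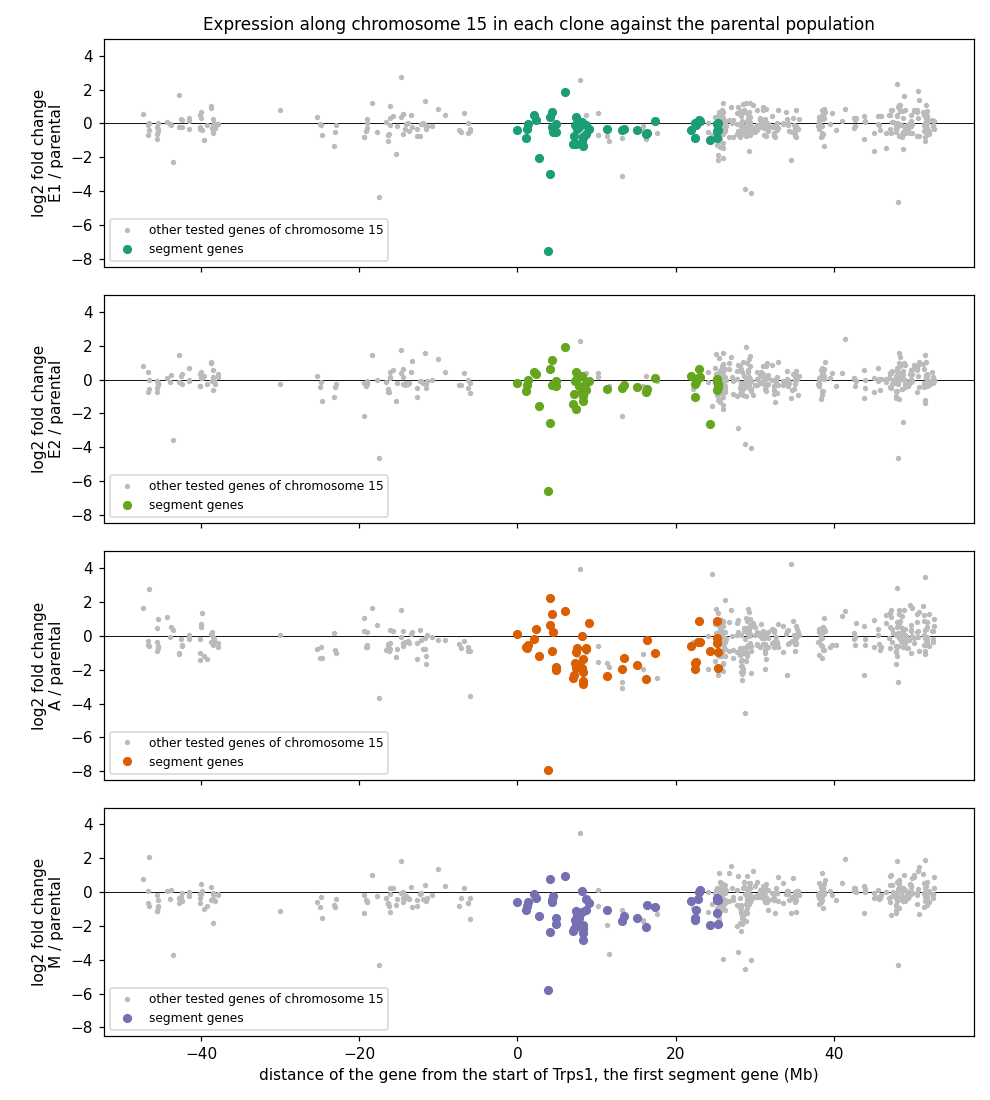
Log2 fold change of every tested gene of chromosome 15 against the parental population (vertical axes, 1 panel per clone), by distance from the start of Trps1 in Mb. Coloured points are the 52 tested segment genes and grey points the other tested genes of the chromosome; in A and M most coloured points between about 5 and 23 Mb lie below 0, with Has2 and Tmem65 among the exceptions.

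In the central stretch the 6 members not called lower in A were Has2, Tmem65, Nsmce2, Trib1, St3gal1 and Zfat. In M they were Has2, Tmem65, Trmt12, Washc5, Zfat and Trappc9. Of these, Has2 was called higher in A and M and Trib1 higher in A, and the others had no call. Tmem65, a protein of the inner mitochondrial membrane (Entrez 74868, 58782269 to 58823663), was measured at 33.8, 51.7 and 49.8 CPM in the parental libraries, 45.5, 45.4 and 50.6 in those of E1, 42.7, 58.7 and 57.3 in E2, 44.3, 49.9 and 42.5 in A, and 43.1, 48.1 and 53.3 in M. The 5 populations overlapped. Its fitted log2 fold changes were 0.06 (SE 0.20) for E1, 0.23 (SE 0.24) for E2, 0.01 (SE 0.21) for A and 0.09 (SE 0.21) for M.

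**Figure D3:**
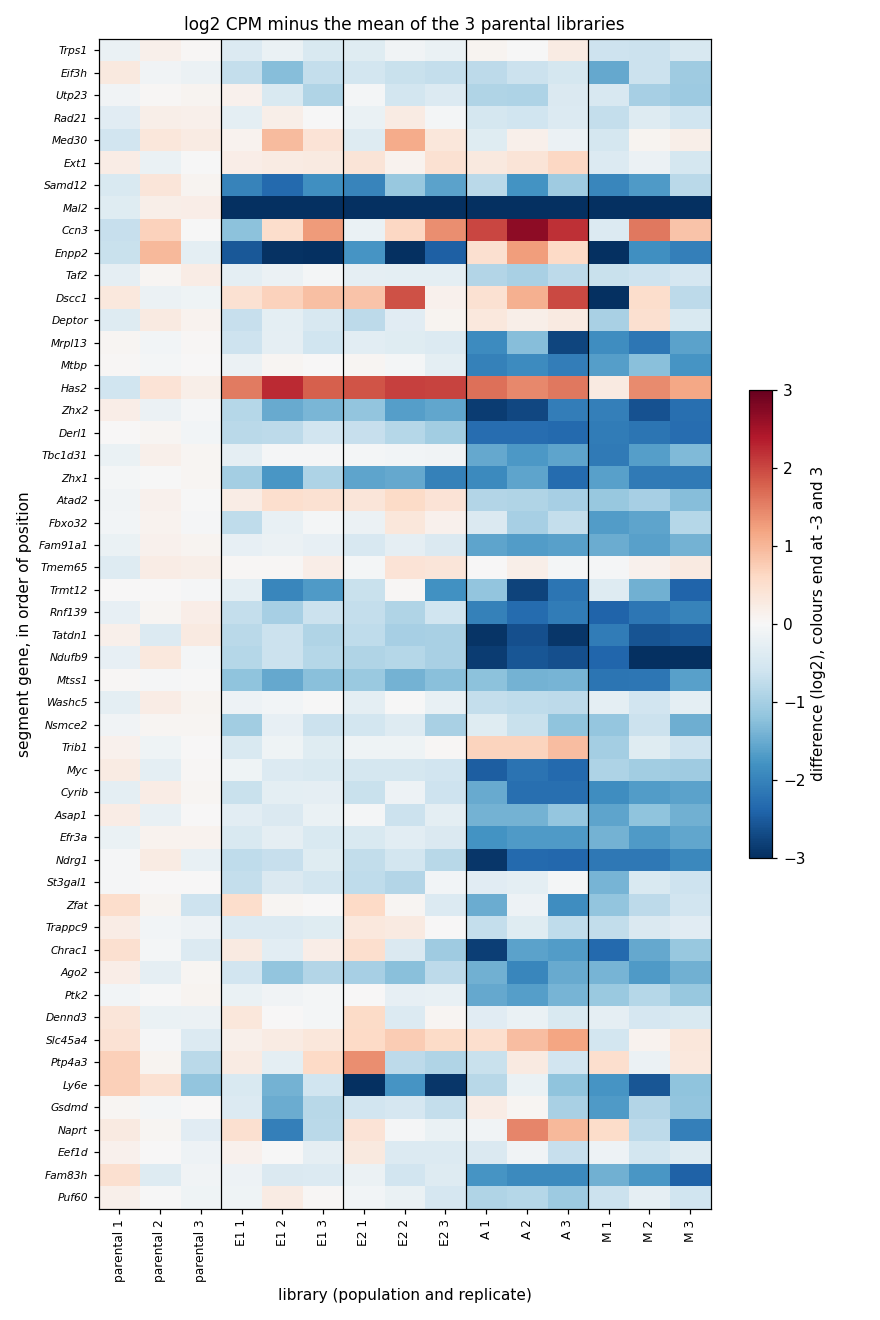
Log2 CPM of the 52 tested segment genes in each of the 15 libraries (columns), minus the mean of the 3 parental libraries, in order of position from top to bottom, computed with a prior count of 2; blue is lower and red is higher, and colours end at -3 and 3. The block of dark blue from Mrpl13 to Ptk2 is present in all 6 libraries of A and M, interrupted by genes such as Tmem65 and Trib1, and Has2 is red in all 12 libraries of the clones.

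At the ends of the list the values did not mark a clear edge. Trps1, the first member, encodes a zinc finger repressor that is used as a marker of mammary epithelium (Entrez 83925, 50654757 to 50890631), and it was measured at 109.9, 141 and 129 CPM in the parental libraries, 94.4, 109 and 91.9 in those of E1, 97.8, 118 and 109 in E2, 134, 124 and 149 in A, and 81.7, 80.98 and 90.4 in M. The A libraries overlapped the parental libraries and the M libraries lay below both. Its log2 fold changes were -0.36 (SE 0.13) for E1, -0.22 (SE 0.13) for E2, 0.10 (SE 0.13) for A and -0.58 (SE 0.12) for M, and the value of E1 was called when parental replicate 1 was left out (-0.47). The nearest tested genes before it lay about 6 Mb away: Ebag9, at 14.6 ± 0.888 CPM in the parental cells, 10.5 ± 0.775 for E1, 12.8 ± 2.06 for E2, 7.96 ± 1.71 for A and 11.6 ± 1.44 for M, and Sybu, at 1.74 ± 0.804 CPM in the parental cells, 1.38 ± 0.547 for E1, 0.996 ± 0.658 for E2, 0.0836 ± 0.0934 for A and 0.534 ± 0.149 for M. Both were called lower in A, with log2 fold changes of -0.87 and -3.56, and neither was called in M.

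At the far end, Eef1d was the last member inside the interval, with log2 fold changes of -0.04, -0.15, -0.40 and -0.36 in E1, E2, A and M, none of them called. The next 3 tested genes, Tigd5, Pycrl and Gfus, were off the list and called in no clone, with log2 fold changes of 0.14, -0.43 and -0.32 for A and -0.24, -0.95 and 0.23 for M. Zfp623 and Zfp707, the nearest tested genes after the interval, were low in A and M. Zfp623, a zinc finger gene, was measured at 19.5, 20.5 and 17.3 CPM in the parental libraries, 15.8, 14.6 and 11.8 in those of E1, 11.2, 13.1 and 11.9 in E2, 4.15, 4.70 and 5.26 in A, and 4.28, 5.15 and 4.73 in M, and Zfp707 at 4.20 ± 0.743 CPM in the parental cells, 1.90 ± 0.537 for E1, 2.62 ± 0.981 for E2, 1.14 ± 0.626 for A and 1.06 ± 0.567 for M. All 6 A and M libraries of Zfp623 lay below the other 9, and both genes were called lower in A and M. Fam83h, a protein known for its part in enamel formation (Entrez 105732, 76001092 to 76014336), was measured at 36.3, 19.8 and 24.1 CPM in the parental libraries, 23.2, 19.2 and 19.5 in those of E1, 23.1, 17.4 and 19.7 in E2, 7.51, 6.88 and 6.86 in A, and 9.52, 7.62 and 4.76 in M. Its A and M libraries lay below all others, and its log2 fold changes were -0.37 (SE 0.27) for E1, -0.41 (SE 0.28) for E2, -1.91 (SE 0.26) for A and -1.87 (SE 0.39) for M. Puf60, a splicing factor (Entrez 67959, 76070182 to 76082537), was measured at 22.7, 20.1 and 18.6 CPM in the parental libraries, 18.6, 24.1 and 20.9 in those of E1, 19.3, 17.7 and 14.3 in E2, 10.9, 11.3 and 9.56 in A, and 13.04, 16.8 and 13.5 in M. The A libraries were the lowest and M overlapped E2; A was called lower and M was not, with log2 fold changes of -0.94 (SE 0.11) and -0.49 (SE 0.14). Without M replicate 2, the M value of Puf60 was -0.62 and passed the threshold. The tested gene Iqank1 overlaps Fam83h, and their reads cannot be told apart with certainty. After Puf60, Nrbp2, a low gene, was called in no clone, at 1.335 in A and -0.59 in M. Eppk1, the tested gene after it, was called lower in M alone (-1.565), and its value of -1.198 in A was not called.

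Among the transcription factors of the segment, Myc (Entrez 17869, 61985341 to 61990361) was measured at 227, 157 and 195 CPM in the parental libraries, 175, 144 and 139 in those of E1, 132, 132 and 127 in E2, 34.2, 40.9 and 37.6 in A, and 101, 92.5 and 90.6 in M. The A libraries lay far below all others, the M libraries lay between A and E2, and the E1 libraries overlapped the parental ones. The means were 193 ± 35.3 CPM in the parental cells, 153 ± 19.2 for E1, 130.4 ± 2.71 for E2, 37.6 ± 3.34 for A and 94.6 ± 5.34 for M (SD, n = 3 each). The log2 fold changes were -0.34 (SE 0.19) for E1, -0.57 (SE 0.16) for E2, -2.36 (SE 0.17) for A and -1.03 (SE 0.16) for M. The decreases in E2, A and M were called and that in E1 was not. The E1 value was called when parental replicate 2 was left out (-0.46), and the E2 value lost its call when parental replicate 1 and E2 replicate 1 were left out together (-0.45). The level plots show the A libraries of Myc apart from those of M, whereas the A and M libraries of Zhx2, Ndufb9 and Ago2 overlap.

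**Figure D4:**
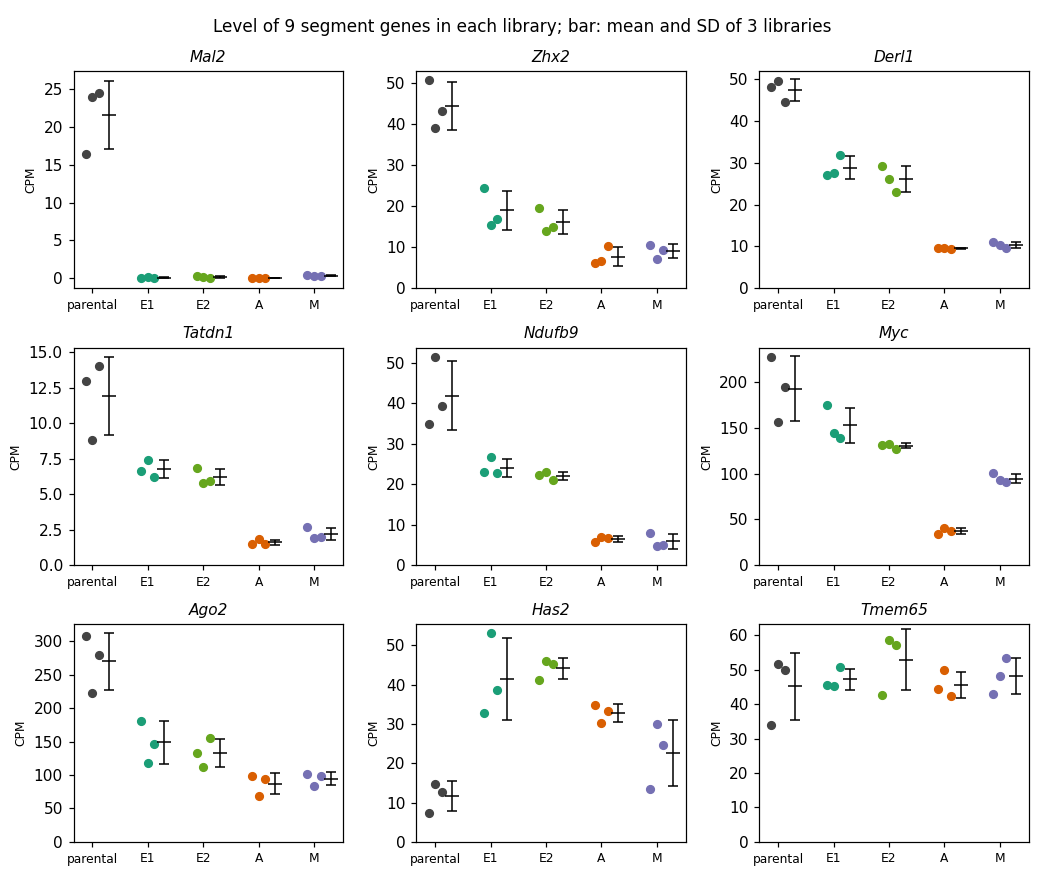
CPM of 9 segment genes (1 panel each, vertical axes starting at 0) in each library of the 5 populations; bars are the mean and SD of 3 libraries. Zhx2, Derl1, Tatdn1 and Ndufb9 show the parental level, an intermediate level in E1 and E2 and a low level in A and M, while Mal2 is near 0 in all clones, Has2 is higher in the clones and Tmem65 is level.

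Zhx1 and Zhx2, related repressors with zinc fingers and homeoboxes, were low in every clone. Zhx2 (Entrez 387609, 57694667 to 57839832) was measured at 50.6, 39 and 43.2 CPM in the parental libraries, 24.4, 15.4 and 16.9 in those of E1, 19.4, 13.97 and 14.9 in E2, 6.01, 6.62 and 10.4 in A, and 10.5, 7.18 and 9.20 in M. Its libraries fell into 3 tiers that did not overlap, parental, E1 with E2, and A with M. Zhx1 (Entrez 22770, 58047003 to 58076508) was measured at 40.1, 41.6 and 43.3 CPM in the parental libraries, 20.5, 12.4 and 21.8 in those of E1, 13.8, 14.2 and 10.1 in E2, 11.1, 13.8 and 8.33 in A, and 13.5, 9.46 and 9.52 in M. All 12 libraries of the clones lay below the 3 parental libraries, and E2, A and M overlapped. The log2 fold changes of Zhx2 were -1.22 (SE 0.23) for E1, -1.46 (SE 0.18) for E2, -2.52 (SE 0.26) for A and -2.30 (SE 0.19) for M, and those of Zhx1 were -1.19 (SE 0.26) for E1, -1.71 (SE 0.16) for E2, -1.90 (SE 0.21) for A and -1.94 (SE 0.17) for M. Zfat, a zinc finger regulator, was a low gene at 3.37 ± 1.30, 3.72 ± 0.764, 3.55 ± 1.26, 1.60 ± 1.11 and 1.77 ± 0.387 CPM in the parental cells, E1, E2, A and M, and was not called.

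Of the members that act on chromatin and the chromosome, Atad2 moved in opposite directions between the clones. Atad2, a bromodomain ATPase linked to replicating chromatin (Entrez 70472, 58094044 to 58135525), was measured at 156, 183 and 166 CPM in the parental libraries, 196, 237 and 231 in those of E1, 217, 249 and 225 in E2, 91.9, 90.5 and 83.7 in A, and 76.2, 83.7 and 69.2 in M. The E1 and E2 libraries lay above the parental libraries, and the A and M libraries lay below them. Its log2 fold changes were 0.40 (SE 0.11) for E1, 0.45 (SE 0.09) for E2, -0.92 (SE 0.08) for A and -1.14 (SE 0.10) for M, all 4 called. By edgeR the adjusted p was 0.04473 for E1 and 0.0198 for E2, close to the threshold, and 7.934e-06 for A and 1.401e-06 for M. Its calls with 1 library left out are not given here. Rad21, the kleisin subunit that closes the cohesin ring, was measured at 216, 309.8 and 304 CPM in the parental libraries, 222, 309 and 271 in those of E1, 238, 322 and 264 in E2, 189.7, 179.5 and 207 in A, and 166, 207 and 181 in M. Its A and M libraries lay below all others and were called lower, at log2 fold changes of -0.53 (SE 0.18) and -0.58 (SE 0.19). Taf2, a subunit of the general transcription factor TFIID, had means of 56.3 ± 9.49, 49.5 ± 4.23, 45.8 ± 0.678, 30.1 ± 1.90 and 36.9 ± 2.28 CPM in the parental cells, E1, E2, A and M, and was called lower in A and M. Chrac1, a histone-fold subunit of a chromatin remodelling complex, had means of 6.70 ± 2.11, 6.83 ± 1.47, 5.68 ± 3.18, 1.64 ± 0.675 and 2.11 ± 0.842 CPM in the same order and was called lower in A and M. Nsmce2, a SUMO ligase of the SMC5/6 complex, was called lower in M alone (-1.05, SE 0.25). Its values of -0.622 for E1, -0.626 for E2 and -0.714 for A were not called. Dscc1, which loads the replication clamp during cohesion, was not called in any clone.

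Med30, a subunit of the Mediator complex (Entrez 69790, 52712445 to 52730431), was measured at 6.27, 11.9 and 11.2 CPM in the parental libraries, 10.2, 18.4 and 12.5 in those of E1, 7.18, 20.3 and 11.9 in E2, 7.34, 10.4 and 8.36 in A, and 6.52, 10.1 and 10.6 in M. The 5 populations overlapped. Its log2 fold changes were 0.48 (SE 0.38) for E1, 0.42 (SE 0.52) for E2, -0.17 (SE 0.33) for A and -0.11 (SE 0.37) for M, none of them called.

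Of 6 members that serve RNA and protein synthesis, Eif3h and Ago2 were called lower in all 4 clones, Utp23 and Mrpl13 in A and M, Trmt12 in A alone and Eef1d in none. Eif3h, a subunit of the initiation factor eIF3 (Entrez 68135, 51786563 to 51865461), was measured at 51.95, 38.96 and 37.2 CPM in the parental libraries, 25.8, 17.3 and 25.8 in those of E1, 28.8, 26.4 and 25.6 in E2, 24.6, 26.9 and 29.1 in A, and 14.6, 26.98 and 20.1 in M. All 12 libraries of the clones lay below the 3 parental libraries, and the clones overlapped each other. Its log2 fold changes were -0.89 (SE 0.24) for E1, -0.66 (SE 0.16) for E2, -0.67 (SE 0.17) for A and -1.04 (SE 0.30) for M. Without parental replicate 1, the values of E2 (-0.52) and A (-0.54) lost their calls. They were also lost for E2 without its replicate 2 (-0.65) or 3 (-0.65) and for A without its replicate 1 (-0.61).

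Mrpl13, a protein of the large mitochondrial ribosomal subunit, was measured at 11, 10.03 and 10.8 CPM in the parental libraries, 6.84, 8.78 and 7.0 in those of E1, 8.48, 8.27 and 8.02 in E2, 2.82, 4.30 and 1.51 in A, and 2.86, 2.30 and 3.43 in M. Its A and M libraries lay below all others, at log2 fold changes of -1.86 (SE 0.43) and -1.87 (SE 0.17). Ago2, the Argonaute that cleaves microRNA targets, was measured at 308, 223 and 279.8 CPM in the parental libraries, 181, 118 and 147 in those of E1, 133, 112 and 155 in E2, 99.2, 69.2 and 93.4 in A, and 102, 83.01 and 98.2 in M. The parental, E1 with E2, and A with M libraries again formed 3 tiers without overlap, with log2 fold changes of -0.86 (SE 0.22) for E1, -1.02 (SE 0.19) for E2, -1.63 (SE 0.21) for A and -1.52 (SE 0.16) for M. Utp23, a factor of small ribosomal subunit processing, was called lower in A (-0.73, SE 0.17) and M (-0.83, SE 0.20). Trmt12, an enzyme of tRNA modification, was called lower in A alone, from 2.20 ± 0.0480 to 0.540 ± 0.348 CPM. Its log2 fold changes of -1.105 for E1, -0.627 for E2 and -1.197 for M were not called. Eef1d, an exchange subunit of elongation factor 1, was not called.

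Ndufb9 and Tatdn1 lie head to head, with annotated starts 45 bases apart on opposite strands, and their fold changes were similar. Ndufb9, an accessory subunit of respiratory complex I (Entrez 66218, 58933801 to 58939516), was measured at 34.9, 51.4 and 39.4 CPM in the parental libraries, 22.9, 26.6 and 22.7 in those of E1, 22.2, 22.97 and 20.9 in E2, 5.68, 6.95 and 6.64 in A, and 7.89, 4.66 and 4.89 in M. Tatdn1, a putative nuclease of the TatD family (Entrez 69694, 58890153 to 58933756), was measured at 12.9, 8.80 and 14.01 CPM in the parental libraries, 6.60, 7.43 and 6.21 in those of E1, 6.87, 5.79 and 5.93 in E2, 1.46, 1.83 and 1.48 in A, and 2.69, 1.89 and 1.98 in M. In both genes the A and M libraries lay below all E1 and E2 libraries, which lay below all parental libraries. The log2 fold changes of Ndufb9 were -0.80 (SE 0.18) for E1, -0.93 (SE 0.17) for E2, -2.69 (SE 0.19) for A and -2.85 (SE 0.29) for M. Those of Tatdn1 were -0.82 (SE 0.22) for E1, -0.94 (SE 0.22) for E2, -2.86 (SE 0.23) for A and -2.43 (SE 0.26) for M. The call of Tatdn1 in E1 was lost when parental replicate 1 (-0.77) or 3 (-0.68), or E1 replicate 1 (-0.82), 2 (-0.89) or 3 (-0.76), was left out, and its call in E2 without parental replicate 3 (-0.80). The annotated span of Tatdn1 covers most of that of Rnf139 (Entrez 75841, 58889229 to 58902390), and the strand setting of the counting is not given in the sources used here, so reads from that overlap cannot be assigned to either gene with certainty.

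Other head-to-head pairs were not called alike in every clone, and differences in fold change between the genes of a pair were not tested. The annotated starts of Mrpl13 and Mtbp lie 92 bases apart, and the log2 fold changes of Mrpl13 in E1 and E2 were -0.49 (SE 0.12) and -0.36 (SE 0.05), neither called. Mtbp, which takes part in the firing of replication origins and binds Mdm2, was measured at 44.5, 41.5 and 44.02 CPM in the parental libraries, 38.6, 44.8 and 43.5 in those of E1, 45.5, 41.6 and 35.6 in E2, 10.7, 11.6 and 10.3 in A, and 13.8, 18.01 and 12.7 in M. Its E1 and E2 libraries overlapped the parental ones and its A and M libraries lay far below, at log2 fold changes of -0.04 (SE 0.07) for E1, -0.09 (SE 0.11) for E2, -1.99 (SE 0.06) for A and -1.54 (SE 0.16) for M. The starts of Washc5 and Nsmce2 lie 4 bases apart. Washc5, the strumpellin subunit of the actin-nucleating WASH complex on endosomes, was called lower in A (-0.76, SE 0.15) and not in M (-0.40, SE 0.18). Nsmce2 had a log2 fold change of -0.71 (SE 0.25) in A, which was not called, and was called lower in M (-1.05, SE 0.25). By edgeR the adjusted p in M was 0.06212 for Washc5 and 0.03915 for Nsmce2, on either side of the threshold.

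Several members act in endoplasmic reticulum quality control and in ubiquitin ligases. Derl1, a channel component of the export of misfolded proteins from the endoplasmic reticulum, was measured at 48.1, 49.6 and 44.6 CPM in the parental libraries, 26.96, 27.6 and 31.97 in those of E1, 29.4, 26.04 and 23.01 in E2, 9.60, 9.69 and 9.38 in A, and 11.1, 10.3 and 9.68 in M. The 3 A values were nearly identical and touched the lowest M value, with E1 and E2 between them and the parental libraries. Its log2 fold changes were -0.71 (SE 0.09) for E1, -0.86 (SE 0.11) for E2, -2.30 (SE 0.05) for A and -2.19 (SE 0.07) for M. Rnf139, a ubiquitin ligase of the same membrane, was measured at 63.98, 79.2 and 87.1 CPM in the parental libraries, 46.4, 38.4 and 48.3 in those of E1, 46.5, 40.9 and 49.9 in E2, 18.6, 15.4 and 17.6 in A, and 14.4, 16.8 and 18.9 in M. It showed the same 3 tiers, with log2 fold changes of -0.79 (SE 0.17) for E1, -0.75 (SE 0.16) for E2, -2.15 (SE 0.15) for A and -2.19 (SE 0.17) for M. Fbxo32, the F-box protein atrogin-1 known from muscle wasting, was called lower in A (-0.70, SE 0.17) and M (-1.32, SE 0.27).

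Trib1, a pseudokinase that brings substrates to the ubiquitin ligase Cop1 (Entrez 211770, 59648654 to 59657099), was measured at 19.4, 16.1 and 17.9 CPM in the parental libraries, 12.9, 16.1 and 13.7 in those of E1, 16.3, 16.3 and 18.2 in E2, 28.2, 28.4 and 34.04 in A, and 8.73, 13.7 and 11.5 in M. The A libraries lay above all others and the M libraries below all parental ones. It was called higher in A (0.76, SE 0.12) and lower in M (-0.64, SE 0.20).

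Membrane traffic and cytoskeleton genes included the most extreme member. Mal2, a transcytosis protein of epithelial cells (Entrez 105853, 54571366 to 54602846), was measured at 16.4, 23.96 and 24.5 CPM in the parental libraries. Over 3 libraries each it had 1757 counts in the parental population, 4 for E1, 12 for E2, 2 for A and 30 for M. The level was 0.210% of the parental level in E1 (95% exact counting interval 0.0570% to 0.538%), 0.672% in E2 (0.346% to 1.18%), 0.0969% in A (0.0117% to 0.351%) and 1.44% in M (0.967% to 2.06%). These intervals cover counting error only. In contrast to the genes of the central stretch, Mal2 was near 0 in E1 and E2 as well as in A and M.

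Mtss1, a membrane-bending regulator of actin (Entrez 211401, 58941234 to 59083956), was measured at 92.02, 86.4 and 89.1 CPM in the parental libraries, 38.7, 30.8 and 37.3 in those of E1, 40.9, 33.2 and 37.1 in E2, 37.8, 33.4 and 34.1 in A, and 19.6, 19.8 and 28.6 in M. The parental libraries lay far above all others, E1, E2 and A overlapped, and the M libraries lay below E1, E2 and A. Its log2 fold changes were -1.32 (SE 0.10) for E1, -1.27 (SE 0.09) for E2, -1.34 (SE 0.06) for A and -1.97 (SE 0.18) for M. Ptk2, the focal adhesion kinase, was measured at 72.6, 75.9 and 81.8 CPM in the parental libraries, 67.2, 71.8 and 73.6 in those of E1, 77.9, 64.6 and 65.2 in E2, 26.5, 24.3 and 28.9 in A, and 35.3, 42.6 and 34.7 in M. E1 and E2 overlapped the parental libraries, M lay below them, and A lay below M. Its log2 fold changes were -0.12 (SE 0.06) for E1, -0.15 (SE 0.10) for E2, -1.53 (SE 0.09) for A and -1.03 (SE 0.11) for M.

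Efr3a, an anchor of phosphatidylinositol kinase at the plasma membrane, had means of 311 ± 37.1 CPM in the parental cells, 235 ± 17.3 for E1, 234 ± 12.1 for E2, 93.5 ± 3.69 for A and 106 ± 10.5 for M. Fam91a1, a tether of Golgi vesicles, had 393 ± 47.1 CPM in the parental cells, 334 ± 8.73 for E1, 298 ± 24.9 for E2, 126 ± 4.25 for A and 138 ± 10.7 for M. Cyrib, which binds active Rac1 and limits its signalling, had 77.6 ± 13.2 CPM in the parental cells, 58.5 ± 8.65 for E1, 55.5 ± 11.3 for E2, 19.7 ± 6.27 for A and 23.3 ± 2.11 for M, and Asap1, a GTPase-activating protein for Arf, had 95.2 ± 14.4 CPM in the parental cells, 75.9 ± 5.89 for E1, 75.8 ± 14.97 for E2, 37.8 ± 3.996 for A and 35.7 ± 4.84 for M. Tbc1d31, a centrosomal protein, had 55.9 ± 6.79 CPM in the parental cells, 51.6 ± 4.70 for E1, 52.8 ± 1.02 for E2, 18.1 ± 1.27 for A and 17.6 ± 4.75 for M. All 5 were called lower in A and in M, and their A and M libraries lay below all other libraries. Trappc9, a subunit of the TRAPP tether of the Golgi, was called lower in A only (-0.61, SE 0.17). Its values of -0.396 for E1, 0.205 for E2 and -0.501 for M were not called. Dennd3, an exchange factor for Rab12, was called in no clone.

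Matrix and glycan genes of the segment were mixed, and Has2 ran against the general direction. Has2, the main hyaluronan synthase of many mesenchymal and tumour cells (Entrez 15117, 56665627 to 56694546), was measured at 7.33, 14.8 and 12.6 CPM in the parental libraries, 32.9, 53.1 and 38.6 in those of E1, 41.1, 46.1 and 45.3 in E2, 34.9, 30.3 and 33.4 in A, and 13.4, 29.9 and 24.7 in M. All E1, E2 and A libraries lay above the parental ones, and M replicate 1 lay within the parental range. Its log2 fold changes were 1.83 (SE 0.37) for E1, 1.92 (SE 0.31) for E2, 1.50 (SE 0.31) for A and 0.96 (SE 0.46) for M, all 4 called. The call in M was lost without parental replicate 1 (0.72), M replicate 2 (0.72) or M replicate 3 (0.90). The annotated antisense gene Has2os overlaps Has2, and their reads cannot be told apart with certainty.

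Ccn3, a matricellular protein (Entrez 18133, 54745910 to 54753762), was measured at 0.650, 1.80 and 1.07 CPM in the parental libraries, 0.424, 1.58 and 2.74 in those of E1, 0.937, 1.71 and 2.98 in E2, 4.58, 7.37 and 5.23 in A, and 0.793, 3.41 and 2.01 in M. The A libraries lay above all others, which overlapped among themselves, and A alone was called, at a log2 fold change of 2.22 (SE 0.45). Enpp2, the secreted enzyme autotaxin that makes lysophosphatidic acid, was measured at 1.62, 5.21 and 2.14 CPM in the parental libraries, 0.393, 0.279 and 0.252 in those of E1, 0.729, 0.209 and 0.425 in E2, 3.72, 6.39 and 4.03 in A, and 0.264, 0.686 and 0.583 in M. It was called lower in E1, E2 and M, and its A libraries overlapped the parental ones. Ext1, a polymerase of heparan sulfate, was called in no clone, and St3gal1, a sialyltransferase, was called lower in M alone (-0.76, SE 0.29). The St3gal1 values of -0.559 for E1, -0.526 for E2 and -0.225 for A were not called.

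Of the remaining members, Ndrg1, a gene known to respond to hypoxia and stress, had means of 190.5 ± 30.6 CPM in the parental cells, 125 ± 18.2 for E1, 116 ± 11.5 for E2, 33.1 ± 7.004 for A and 44.8 ± 3.80 for M. Its log2 fold changes were -0.60 (SE 0.18) for E1, -0.72 (SE 0.16) for E2, -2.52 (SE 0.23) for A and -2.09 (SE 0.15) for M, and its A and M libraries lay below all others. Slc45a4, a solute carrier (Entrez 106068, 73577418 to 73645757), was measured at 7.20, 5.17 and 3.999 CPM in the parental libraries, 5.90, 6.32 and 6.75 in those of E1, 8.02, 8.97 and 7.93 in E2, 7.51, 10.1 and 12.2 in A, and 3.61, 5.66 and 6.77 in M. Every A library lay above every parental library, and M overlapped both E1 and the parental libraries. It was called higher in A (0.86, SE 0.32). That call was lost without parental replicate 3 (0.68) or A replicate 3 (0.69). Samd12 was called lower in E1, E2 and M, from 3.19 ± 0.901 CPM in the parental cells to between 0.701 CPM in E1 and 1.14 CPM in M. In A it had 1.34 ± 0.449 CPM, and the A libraries also lay below all parental ones. The log2 fold change in A, -1.21 (SE 0.38), was not called and was near that of M, -1.43 (SE 0.43). Ly6e, a surface protein of the Ly6 family, was called lower in E2 only, from 1.58 ± 0.900 to 0.192 ± 0.137 CPM. Its log2 fold changes of -0.959 for E1, -0.89 for A and -1.957 for M were not called. The mTOR inhibitor Deptor, the phosphatase Ptp4a3, the pore-forming protein Gsdmd and Naprt, an enzyme of NAD synthesis, were called in no clone.

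No member separated E1 from E2 past the threshold. The count was 0 by edgeR, where 0.236% of all tested genes were called, and 0 by DESeq2. At an unadjusted p under 0.05, 3 members and 1124 of all genes differed. A and M lay well below both of these clones. Against E1, 25 members were called lower and 4 higher in A (background 14.6% and 15%), and 22 lower and 0 higher in M (1.46% and 2.43%). Against E2, 25 were called lower and 3 higher in A (11% and 11.4%), and 22 lower and 0 higher in M (1.57% and 1.93%). At an unadjusted p under 0.05, 31 members and 2191 of all genes differed between M and E1. Between M and E2, 32 members and 2116 of all genes did. DESeq2 called 27 members between M and E1 and 25 between M and E2, and its counts over all genes are not given here.

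A set of 17 members was called lower in both A and M against both E1 and E2 (background 0.488%): Mrpl13, Mtbp, Zhx2, Derl1, Tbc1d31, Atad2, Fam91a1, Rnf139, Tatdn1, Ndufb9, Cyrib, Asap1, Efr3a, Ndrg1, Chrac1, Ptk2 and Fam83h. Library by library, 21 members had all 6 values of A and M below all 9 others (background 1.05%), the same 17 plus Rad21, Taf2, Myc and Ago2. Between comparisons that share no library, the log2 fold changes of A against E1 and of M against E2 had a Pearson r of 0.609 and a Spearman rho of 0.611 across the 52 members, and 0.189 and 0.168 across all tested genes. For A against E2 and M against E1 they were 0.599 and 0.726 across the members and 0.416 and 0.414 across all genes. These are correlations across genes, which are not independent replicates, and the members were chosen with these differences known.

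A and M differed from each other at 9 members, beside background shares of 8.55% lower and 9.2% higher in M. Trps1, Ext1, Enpp2, Mtss1, Trib1 and Slc45a4 were lower in M than in A, and Mal2, Myc and Ptk2 were higher. For Mal2 that difference rests on 2 counts in A and 30 in M. Myc had a log2 difference of 1.33 (SE 0.09) between M and A, while the next member, Cyrib, had 0.25 (SE 0.26) and was not called. The nearest tested genes off the list on either side of Myc were mixed. Lratd2 had a difference of 1.62 between M and A, 9930014A18Rik had -0.23 and Pvt1 had -0.36. Without M replicate 2, 14 members were called between M and A.

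Within the interval, 25 further tested genes were not on the list. In A, 13 of these (52%) were called lower and 2 (8%) higher, beside 14.9% and 15.1% of all tested genes. In M, 8 (32%) were called lower and 1 (4%) higher, beside 6.28% and 7.87%. In E1, 3 (12%) were called lower and 2 (8%) higher, beside 7.35% and 7.77%. In E2, 2 (8%) were called lower and 1 (4%) higher, beside 8.8% and 9.14%. The median log2 fold changes were -0.36 for E1, -0.06 for E2, -1.04 for A and -0.95 for M. Pvt1, the long noncoding RNA gene beside Myc, had means of 32.7 ± 3.33 CPM in the parental cells, 19.5 ± 3.33 for E1, 22.1 ± 3.99 for E2, 10.9 ± 1.02 for A and 8.49 ± 2.54 for M, and was called lower in all 4 clones. Phf20l1, a reader of methylated lysines, had 117 ± 15.5 CPM in the parental cells, 84.9 ± 9.61 for E1, 85.6 ± 7.71 for E2, 29.5 ± 3.33 for A and 35.6 ± 3.21 for M, with log2 fold changes of -0.46, -0.45, -1.99 and -1.71 in E1, E2, A and M. Fer1l6, a ferlin, ran the other way, from 0.259 ± 0.0485 CPM in the parental cells to 1.90 ± 0.413 (E1), 1.53 ± 0.328 (E2), 5.13 ± 0.688 (A) and 3.58 ± 2.73 (M), and was called higher in all 4 clones. Lratd2 differed between A and M, with log2 fold changes of -1.52 and 0.10. Pvt1, Phf20l1, Fer1l6 and Lratd2 were chosen after their values were seen.

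Lower expression was not confined to the interval. Of the 409 tested genes of chromosome 15 outside the interval and off the list, 26.4% were called lower in A and 15.6% in M, beside the 14.9% and 6.28% of all tested genes. In windows of 5 Mb, the lowest medians in A were -1.86 between 60 and 65 Mb (9 tested genes) and -1.86 between 65 and 70 Mb (8 tested genes). The lowest in M was -1.61, between 65 and 70 Mb, and the medians of the windows beyond 85 Mb lay between -0.18 and 0.12 in both clones. Other chromosomes also had raised shares. In A the share called lower was 31.3% on chromosome 15, 27.3% on chromosome 8 and 26.2% on chromosome 14. In E2 it was 44.8% on chromosome 14 and 11.5% on chromosome 15.

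Partner genes of the members, which lie mostly on other chromosomes, were described from 18 lists. Their counts stand beside the shares of all tested genes called lower, 7.35% for E1, 8.8% for E2, 14.9% for A and 6.28% for M, and called higher, 7.77%, 9.14%, 15.1% and 7.87%. Of 40 target genes of Myc, 29 were called lower and 2 higher in A, with a median log2 fold change of -1.09. In M, 15 were called lower and 1 higher, with a median of -0.41, in E2 9 and 1 with a median of -0.33, and in E1 4 and 2 with a median of -0.10. Leaving out 1 library gave 30 to 32 called targets in A. It gave 9 in M without M replicate 3 and 6 in E2 without E2 replicate 3, beside 16 and 10 with all libraries. Directly between the clones, 24 of the 40 were called higher and 2 lower in M than in A, with a median of 0.62. Against E1, 30 were called lower and 1 higher in A, and 2 lower and 1 higher in M.

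Rrp12, a ribosomal RNA processing factor, had a log2 fold change of -1.82 (SE 0.26, adjusted p = 5.901e-08) in A by edgeR. C1qbp, a mitochondrial matrix protein, had -1.79 (SE 0.23, adjusted p = 1.931e-07) in A and -1.46 (SE 0.26, adjusted p = 1.201e-05) in M, and was called lower in E1 and E2 too. Gnl3, the nucleolar protein nucleostemin, had -1.70 (SE 0.07, adjusted p = 1.019e-08) in A and -1.09 (SE 0.20, adjusted p = 2.571e-05) in M, and was called lower in E1 and E2 too. Polr1b, a subunit of RNA polymerase I, had -1.31 (SE 0.26, adjusted p = 5.217e-05) in M and was called lower in E2 too. Ldha, lactate dehydrogenase, rose in E1 at 1.01 (SE 0.21, adjusted p = 0.0002455). The order of the 4 medians, E1, E2, M and A, was the order of the Myc fold changes; the part of Myc in the level of these genes was not tested.

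**Figure D5:**
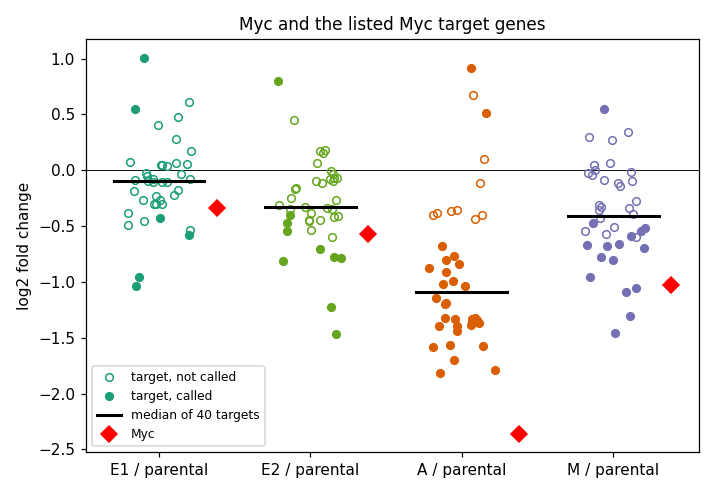
Log2 fold changes against the parental population (vertical axis) of the 40 listed Myc targets in each clone; filled circles were called by edgeR at an adjusted p under 0.05, open circles were not, lines are medians, and diamonds are Myc itself. The median is -1.09 in A, and -0.10, -0.33 and -0.41 in E1, E2 and M.

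Of 11 other members of the Myc network (partners and antagonists), 1 was called lower in E1, 1 lower and 1 higher in E2, 2 lower in A and 2 lower in M. They included Mxd4, a repressor that competes with Myc for Max, at -1.29 (SE 0.29, adjusted p = 0.01079) in E1 and -0.99 (SE 0.21, adjusted p = 0.04817) in M. Mga had -0.78 (SE 0.17, adjusted p = 0.0002941) in A. Of 12 eIF3 subunits, 6 were called lower in A and 4 in M, 3 lower and 1 higher in E2, and 1 lower and 1 higher in E1. Without A replicate 1, 2 were called in A, and without parental replicate 1, E1 replicate 3 or A replicate 3, 3 were called. Eif3l, which lies on chromosome 15 outside the interval, fell the most, at -1.79 (SE 0.14, adjusted p = 1.49e-09) in A and -1.77 (SE 0.07, adjusted p = 4.289e-09) in M. Eif3e, called lower in A and M, and Eif3d, called lower in A, also lie on chromosome 15. Of 35 subunits of complex I, 2 were called lower in E1, 1 in E2, 5 in A (3 without A replicate 1) and 3 in M (1 without parental replicate 2 or 3), and none higher, which for the lower calls is 5.71%, 2.86%, 14.3% and 8.57% of the list, beside 7.35%, 8.8%, 14.9% and 6.28% of all tested genes. Ndufa9 had -1.32 (SE 0.22, adjusted p = 7.577e-05) in A and Ndufb11 -1.21 (SE 0.18, adjusted p = 0.002284) in M. Ndufb11 was called lower in E1 and E2 too. Of 14 complex I assembly factors, 2 were called lower in A and none in the other clones by edgeR.

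Of 47 proteins of the large mitochondrial ribosomal subunit, 11 were called lower in A (7 without parental replicate 1 or A replicate 2, and 6 without A replicate 1), 4 lower and 2 higher in E2, 1 higher in E1 and none in M. Mrpl19 had -1.32 (SE 0.14, adjusted p = 4.342e-05) in A and was called lower in E2 too. Of 5 elongation factor 1 subunits and partners, 3, 3, 2 and 3 were called lower in E1, E2, A and M, and 1, Vars, was called higher in E1. Eef1g, for example, had -1.02 (SE 0.23, adjusted p = 6.329e-05) in A.

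Of 15 cohesin partners of Rad21, 1, 1, 2 and 2 were called lower and 2, 1, 1 and 0 higher in E1, E2, A and M. The 2 lower calls in A are 13.3% of the list, beside 14.9% of all genes. Wapl, which releases cohesin from chromatin, fell in all 4 clones, at -0.85 (SE 0.14, adjusted p = 4.489e-05) in A. It lies on chromosome 14, where 23.7%, 44.8%, 26.2% and 12.1% of tested genes were called lower in E1, E2, A and M. Of 31 Mediator subunits, 2, 3, 7 and 2 were called lower and 5, 4, 3 and 3 higher in the same order. Med1 had -1.17 (SE 0.20, adjusted p = 2.822e-06) in A. Of 15 TFIID subunits, 4 were called lower and 1 higher in A, 1 higher in E2, 1 lower in M and none in E1. Of 7 SMC5/6 partners, 2, 2, 3 and 1 were called higher and none lower. Nsmce1, a ubiquitin ligase subunit of that complex, rose in all 4 clones, at 1.53 (SE 0.33, adjusted p = 0.0001819) in E1 and 1.88 (SE 0.30, adjusted p = 3.435e-06) in A.

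Of 11 Argonaute partners, 3, 3, 1 and 1 were called lower and 1, 1, 3 and 1 higher in E1, E2, A and M. Ago1, a close relative of Ago2, rose in all 4 clones, at 0.85 (SE 0.14, adjusted p = 0.001853) for E1, 1.16 (SE 0.22, adjusted p = 6.724e-05) for E2, 1.44 (SE 0.17, adjusted p = 9.975e-07) for A and 1.17 (SE 0.18, adjusted p = 6.329e-05) for M. Tnrc6c, a scaffold that binds Argonautes, fell in all 4 clones, at -0.89 (SE 0.20, adjusted p = 0.0003523) in A. Ago2 and Ago1 thus moved in opposite directions in every clone.

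Of 15 focal adhesion partners of Ptk2, 1, 1, 1 and 0 were called lower and 3, 3, 2 and 3 higher in E1, E2, A and M. Nedd9, a scaffold that binds the kinase, rose in E1, E2 and A, at 2.02 (SE 0.15, adjusted p = 6.568e-08) in A. Parva, an actin-binding adaptor, rose in A at 1.18 (SE 0.13, adjusted p = 2.737e-06) and in M at 1.07 (SE 0.20, adjusted p = 3.228e-05). Of 19 enzymes and receptors of heparan sulfate and hyaluronan, 3, 3, 2 and 0 were called lower and 2, 4, 5 and 3 higher. Ugdh, which makes the sugar precursor of both polymers, rose in A at 1.46 (SE 0.09, adjusted p = 1.251e-07) and in M at 0.96 (SE 0.16, adjusted p = 0.0001254). It was called higher in E1 too, at 0.76 (SE 0.06). Cd44, the main hyaluronan receptor, rose in A at 0.78 (SE 0.13, adjusted p = 0.001253) and in M at 0.63 (SE 0.26, adjusted p = 0.01572).

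Of 7 genes that work with Trib1 or Fbxo32 in ubiquitin ligases, 2 were called lower in E1, 1 lower and 1 higher in A, 2 higher in M and none in E2. Trib2, a relative of Trib1, had 3.68 (SE 0.34, adjusted p = 2.02e-11) in A and 1.07 (SE 0.34, adjusted p = 0.001126) in M. In E1 it had -1.22 (SE 0.36, adjusted p = 0.0006086). Of 13 TRAPP subunits, 3 were called lower and 2 higher in A, 1 lower in E1, 1 lower in M and none in E2. Of 7 WASH complex genes, 1 was called lower and 1 higher in A and none in the other clones. Of 9 mTOR complex genes, Telo2, a chaperone of related kinases, was the only call, at 1.06 (SE 0.24, adjusted p = 0.001746) in E1 and 1.03 (SE 0.28, adjusted p = 0.001944) in E2. By number, the counts in these shorter lists were small, and leaving out 1 library moved 51 of the 72 counts over the 18 lists and 4 clones by more than 1.5 times.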

How the data were processed

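The authors deposited raw counts of reads per gene for each library, made with HISAT2 and featureCounts on GRCm38 (mm10), per the submitters' processing notes, and the library preparation was directional, per the labels. Tool versions, the strand setting and the handling of multiply mapped reads are not given in the sources used here. The deposited series tables were not used. Of 27179 identifiers, 25275 were named and placed by a RefSeq table of GRCm38.p6 and 1904 were not. The fit used edgeR 4.0.16 (R 4.3.3, limma 3.58.1): filterByExpr (minimum count 10, minimum total 15) kept 12712 genes, TMM factors were 0.847 to 1.11, and a robust quasi-likelihood fit of all 15 libraries gave 10 comparisons, Benjamini-Hochberg adjusted within each. Fold changes used a prior count of 2, and an SE comes from the SDs of log2 CPM of the populations compared. The common dispersion over genes was 0.0651. The members, the 18 partner lists and the alternatives were chosen with earlier results of these data known. Values in every library are given for members of at least 5 CPM in 1 population that had 1 of the 3 highest or lowest fold changes in a clone, for the first and last 2 members, for Myc, Mal2, Ndufb9 and Tatdn1, and for some further members chosen after their values were seen. Partner genes named are among the 3 largest called changes of their list, except Vars. Of the 54 members, 10 overlap another counted gene, 5 of these a tested gene. Replicates of a population were not duplicates of each other. Alternatives were RLE scaling, TMM without chromosome 15, DESeq2 1.42.0, no filter, at least 1 CPM in 3 libraries, the compared populations alone, a replicate block, the 6 top genes left out, both libraries with the highest top-gene share left out, and each library left out.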

Additional observations from a re-analysis of the deposited data

Results flagged for a closer look

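Atad2 and Trib1 were picked out because the same contrast with the parental population went in opposite directions in different clones. The log2 difference of Atad2 was -1.32 for A against E1 and -1.37 for A against E2. It was -1.54 for M against E1 and -1.59 for M against E2. Trib1 was lower in M than in A, with a log2 difference of -1.40. These 5 differences restate the fold changes by which both genes were picked, so they are a description and no test is read from them. All 3 libraries of each lower clone lay below all 3 of the higher one. The members were chosen with differences between these clones known.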

How the results depend on the processing

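The number of members called was within 1.5 times the reported number for all 11 comparisons under all alternatives, with the exception of M against A. There, 14 members instead of 9 were called with the replicate block, and 14 without M replicate 2. With 1 library left out, the counts ranged from 12 to 16 in E1, 14 to 20 in E2, 31 to 35 in A and 28 to 35 in M against the parental population, 0 to 0 for E2 against E1, 25 to 31 for A and 17 to 25 for M against E1, 25 to 29 for A and 17 to 22 for M against E2, 7 to 14 for M against A, and 36 to 41 for any difference. With the replicate number as a block, 17, 19, 36 and 36 members were called in E1, E2, A and M. Replicate numbers were not taken to pair the libraries. Only 4 of 30 same-numbered pairs had a correlation of deviations over 0.1 (range -0.06 to 0.21), but differently numbered pairs reached 0.06 at most and 14 of 15 libraries correlated best with a library of their own number, a hint from the data, not the design, of a batch shared by number. Of 1536 recomputed fold changes of named members, 1504 kept their direction and side of the threshold, 23 lost the call, 9 gained it and 0 changed direction. Of 72 partner list counts, 51 moved by more than 1.5 times without some library, and among the 17 counts of at least 5, 12 did. With 3 libraries per population and few counts for members under about 1 CPM, differences in such members may not be detectable.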
